A study of Mus musculus with 36 samples.

Results

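Accessible chromatin of mouse dendritic cells exposed to Sendai virus was compared with that of cells exposed to the ligand labelled HMW. The comparison uses the 2 libraries titled S and the 2 titled H, 4 of the 36 libraries of the series, and is not taken against the control libraries; these helped to set the spread in the shared fit of all 36 and are given beside some values for reference. All cells were dendritic cells grown from the bone marrow of female C57BL/6J mice aged 6 to 8 weeks, cultured with GM-CSF at 15 ng/mL. They were stimulated for 6 h and profiled by ATAC-seq, where a transposase cuts and tags DNA that is open. S cells received SeV and no other ligand, and H cells received HMW and no other ligand. The labels give HMW only as this abbreviation and give no amount for either ligand. The same exchange of SeV for HMW was also measured with PAM present on both sides, in 2 libraries of PAM with SeV (PS) and 2 of PAM with HMW (PH). S, H, PS and PH share no library. The labels do not say whether the 2 libraries of a group came from separate mice or cultures, so p-values measure the spread between these libraries, which may be technical.

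Sendai virus is a negative-strand RNA virus whose RNA is recognised in the cytoplasm by RIG-I, which signals through the adaptor MAVS to the kinase TBK1 and to IRF and NF-kappaB transcription factors. Dendritic cells respond to such signals by transcribing interferon beta and interferon alpha genes, and secreted interferon then acts through JAK and STAT proteins on antiviral genes such as Rsad2 and the Ifit genes. Accessibility at promoters and distal elements of these genes tends to follow the binding of those factors, although an accessible site need not be transcribed.

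Promoter sequences of genes whose peaks moved in the comparison are shown first, since the regions themselves, and not transcripts, were measured. Each is the 250 bases before a RefSeq start (GRCm38.p6, the reference release of the mm10 build), 5′ to 3′ on the gene's strand, and lies wholly or partly in a peak that differed between S and H. Letters were capitalised where they match an interferon-stimulated response element (ISRE) written GAAA, any 2 bases, GAAA, an AP-1 site written TGANTCA, a kappaB site written GGGA, any base, TTTCC or a PU.1 site written GAGGAAGT, on either strand. The first 4 are interferon genes and an antiviral gene, the fifth is a costimulatory gene, and the last is a gene whose promoter was more open with HMW.
Ifnb1, chr4:88522795-88523044, minus strand: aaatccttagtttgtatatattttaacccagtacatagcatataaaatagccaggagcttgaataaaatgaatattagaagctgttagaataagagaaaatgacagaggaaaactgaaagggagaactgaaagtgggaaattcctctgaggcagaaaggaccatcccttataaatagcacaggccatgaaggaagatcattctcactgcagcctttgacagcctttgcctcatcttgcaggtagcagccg
Ifna2, chr4:88683780-88684029, minus strand: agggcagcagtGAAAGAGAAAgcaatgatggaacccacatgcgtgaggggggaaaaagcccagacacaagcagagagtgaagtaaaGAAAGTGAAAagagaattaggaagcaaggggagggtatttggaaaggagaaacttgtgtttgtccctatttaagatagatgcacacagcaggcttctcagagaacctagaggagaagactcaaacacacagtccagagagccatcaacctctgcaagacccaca
Ifna5, chr4:88835275-88835524, plus strand: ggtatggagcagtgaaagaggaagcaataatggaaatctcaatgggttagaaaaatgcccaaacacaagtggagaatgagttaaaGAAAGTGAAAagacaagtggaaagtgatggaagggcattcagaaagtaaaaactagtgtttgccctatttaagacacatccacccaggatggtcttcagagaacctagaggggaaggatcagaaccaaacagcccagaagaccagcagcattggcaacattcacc
Rsad2, chr12:26456453-26456702, minus strand: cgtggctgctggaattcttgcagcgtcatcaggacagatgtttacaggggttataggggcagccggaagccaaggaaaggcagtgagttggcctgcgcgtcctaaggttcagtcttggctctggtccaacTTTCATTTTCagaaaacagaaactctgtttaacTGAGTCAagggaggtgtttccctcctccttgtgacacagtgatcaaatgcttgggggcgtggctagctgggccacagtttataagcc
Cd80, chr16:38458683-38458932, plus strand: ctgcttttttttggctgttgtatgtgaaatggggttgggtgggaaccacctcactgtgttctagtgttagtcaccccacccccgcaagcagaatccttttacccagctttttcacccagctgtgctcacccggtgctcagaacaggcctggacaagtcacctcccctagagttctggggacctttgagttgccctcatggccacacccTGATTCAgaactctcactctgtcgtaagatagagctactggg
Hsd11b1, chr1:193242361-193242610, minus strand: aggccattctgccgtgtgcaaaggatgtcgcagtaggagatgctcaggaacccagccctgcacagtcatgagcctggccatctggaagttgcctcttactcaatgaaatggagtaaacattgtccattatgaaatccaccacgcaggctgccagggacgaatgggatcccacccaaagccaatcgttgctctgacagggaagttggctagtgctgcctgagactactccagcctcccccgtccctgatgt
Counted back from the start, the Ifna2 window held the ISRE letters at -239 to -230 and at -164 to -155, and the Ifna5 window held them at -165 to -156. In the Rsad2 window the reverse complement of the ISRE letters stood at -120 to -111 and an AP-1 match at -87 to -81. The Cd80 window held an AP-1 match at -42 to -36. None of the 4 motifs, spelled exactly as above, was found in the Ifnb1 or Hsd11b1 window. The windows of Tnf and Cx3cr1, searched in the same way and not printed, held none either. An exact spelling misses any site that departs from it by a base. The search therefore does not show that the Ifnb1 promoter lacks sites for IRF or NF-kappaB factors.

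Over all promoter windows of 300 bases, the ISRE letters were in 42 of 829 windows in peaks higher in S (5.07%), in 15 of 317 in peaks higher in H (4.73%), in 3.28% of the 14484 windows in any tested peak and in 3.44% of all 32851 windows. The kappaB letters were in 11 of the 829 windows (1.33%) and in 1 of the 317 (0.315%), against 0.504% of windows in a tested peak and 0.411% of all windows. The AP-1 letters were in 8.08% and 4.1% of the same windows, against 5.71% and 7.81%. The PU.1 letters were in 2.29% and 4.1%, against 3.62% and 3.2%. A window was counted once for each start, so neighbouring starts of a gene share bases, and these shares are a description without a test.

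Of 119464 tested peaks, 10818 differed between S and H (9.06%) at an adjusted p under 0.05, by edgeR's quasi-likelihood test with Benjamini-Hochberg adjustment over all tested peaks. Levels are given as CPM, counts scaled to a common library size with TMM factors, a fold change is the fitted one with its SE, and a peak past the threshold is said to be called. S was higher at 6090 (5.1%) and H at 4728 (3.96%). The median log2 fold change, written S over H throughout, was 1.05 among the first and -1.08 among the second, against -0.015 over all tested peaks. A difference of at least 2-fold was fitted at 3226 of the peaks higher in S and at 2695 of those higher in H, and one of at least 4-fold at 733 and 463. Both S libraries lay above both H libraries at 6088 of the 6090 peaks and at 26.1% of all tested peaks, and the reverse order held at 4721 of the 4728 and at 26.8% of all. Scaled by total counts outside the mitochondrial peak, 69.7% of 11461 called peaks were higher in S, and with that peak kept in the totals 82.1% of 11196, against 56.3% here; these scalings moved the median log2 fold change of all peaks to 0.066 and 0.17. With 1 library left out, the count of called peaks was 5450 without S 1, 6013 without S 2, 5153 without H 1 and 5712 without H 2.

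**Figure D1:**
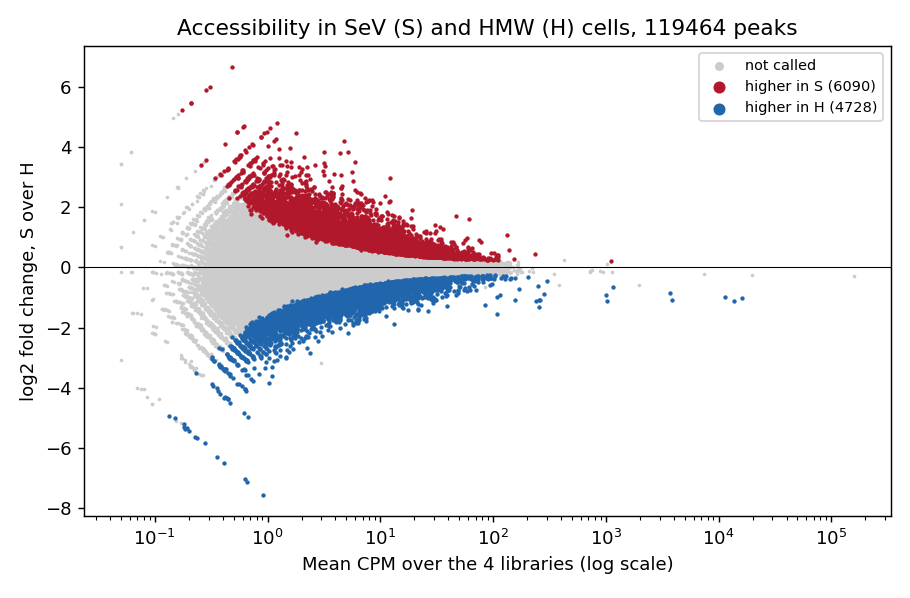
Each point is 1 of the 119464 tested peaks, placed by its mean CPM over the 2 S and 2 H libraries (log scale) and its fitted log2 fold change, S over H. The 6090 peaks higher in S (red) and the 4728 higher in H (blue) spread over the range of levels, and at the right end, the 24 peaks of highest level include 9 called on the H side and 1 on the S side.

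The libraries held 11597648 to 15132150 counts outside the mitochondrial peak in S and H. The mitochondrial peak took 47.1% and 48.7% of the counts in S and 49.9% and 53.4% in H, within a range of 44.1% to 63.1% over all libraries; its part in the called differences was not tested. Another 24 peaks had a mean of at least 300 CPM and together took 22.5% and 23.4% of the remaining counts in S against 27.1% and 30.9% in H. The highest of them, chr1:24611386-24616337, alone took 14.9% and 15.9% in S and 16.5% and 19% in H. Of these 24 peaks, 9 were called higher in H and 1 in S, and of 176 peaks on scaffolds outside the gene table, 34 were higher in H and 1 in S. With the scaffold peaks and these high peaks left out of the fit, 10797 peaks were called, 57.7% of them higher in S, and 10649 of the 10818 calls were kept. Of 8 T cell genes 2 had a start peak, defined below, among the tested peaks, and of 6 B cell genes 2. Those with one included Trac and Ms4a1, given below. Those without one included the defining genes Cd3e, Cd3d, Cd3g, Cd8a and Lck of T cells and Cd79a, Cd79b and Pax5 of B cells. Of 12 dendritic cell genes 11 had one, among them Itgax at 14.3 and 16.8 CPM in S and 17.2 and 15.7 in H. In bulk libraries a smaller share of a cell type and a lower accessibility per cell cannot be told apart.

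The locus of Ifnb1, which encodes interferon beta, an interferon made early after virus sensing, held 1 of the 5 peaks higher in S with the lowest p. The peak chr4:88519372-88521906, downstream of the gene and 888 bp from its start, stood at 20.3 and 22.9 CPM in S and at 2.92 and 2.59 in H. Control libraries stood at 3.28 and 1.83, so both H libraries lay between the control values and both S libraries lay far above them. The log2 fold change was 2.96 ± 0.239 (SE; adjusted p = 4.94e-22). With PAM, PS stood at 22.3 and 17.7 CPM and PH at 4.47 and 2.02, a log2 fold change of 2.64 ± 0.227. The peak over the promoter shown above, chr4:88522158-88523152, stood at 9.62 and 10.4 CPM in S and at 2.79 and 2.41 in H, a log2 fold change of 1.93 ± 0.29 (adjusted p = 9.38e-08). The S and H values were apart at both peaks.

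Within 100 kb of the Ifnb1 start 11 of 35 tested peaks were higher in S and none was higher in H, and 5 of the 11 remained called without each of the 4 libraries in turn. The peak farthest above H in this interval, chr4:88477944-88478469, lay at -44.59 kb from the start in chromosome direction and stood at 5.63 and 6.15 CPM in S against 0.318 and 0.862 in H (log2 fold change 3.38 ± 0.446). Peaks of the interferon alpha genes on the same chromosome were also more open with SeV. Ifna2 stood at 6.54 and 4.49 CPM in S and 1.4 and 1.72 in H (1.83 ± 0.391, adjusted p = 0.000329). Ifna5 stood at 3.99 and 4.92 against 1.14 and 1.98 (1.54 ± 0.423, adjusted p = 0.00811), and Ifna4 at 3.27 and 4.61 against 1.59 and 1.12 (1.52 ± 0.421, adjusted p = 0.00884). At all 3 genes the lowest S library lay above the highest H library. Ifna2 remained called without each library in turn, while the call was lost at Ifna5 without S 2 (adjusted p = 0.0962) or H 1 (0.222) and at Ifna4 without S 2 or H 2 (adjusted p up to 0.147). These genes are near-identical copies, so reads could be split between them in counting. Of 10 interferon genes looked up, 6 had a start peak, defined as the tested peak of highest level within 1 kb of the gene's start; 4 were higher in S, none was higher in H, and their median log2 fold change was 1.68, against 0.047 over all start peaks, of which 4.91% were higher in S and 2.22% higher in H.

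**Figure D2:**
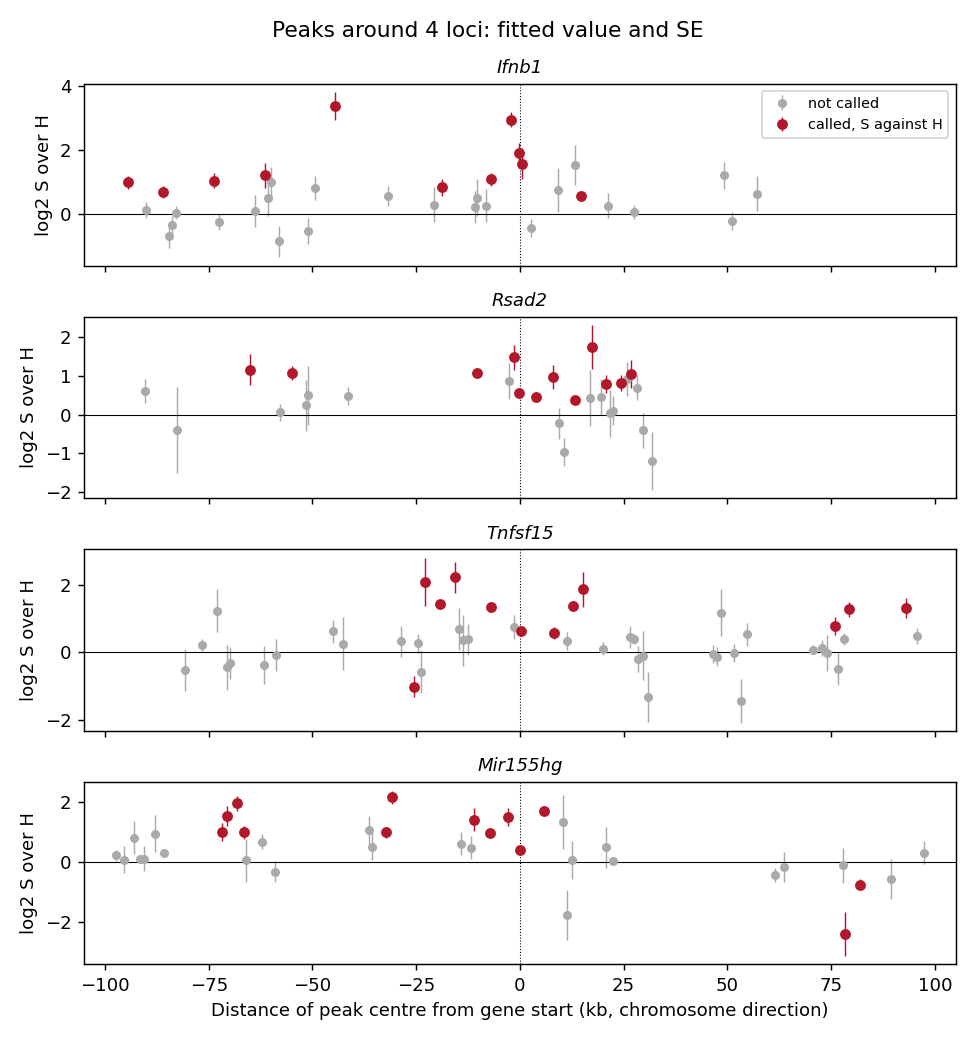
Fitted log2 fold change, S over H, with its SE, of each tested peak by its distance in kb from the start of Ifnb1, Rsad2, Tnfsf15 and Mir155hg (dotted line). Red peaks differed at an adjusted p under 0.05, 11 of 35, 12 of 29, 12 of 47 and 13 of 37, and all of them lie above 0 apart from 1 at Tnfsf15 and 2 at Mir155hg. These loci are a selection of those looked up, and of all tested peaks 9.06% differed.

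Antiviral genes that interferon acts on were higher in S where they were called. Rsad2, which encodes the antiviral enzyme viperin, had 1 of the 5 lowest p-values among peaks higher in S. A peak of 14716 bp at chr12:26438731-26453446, reaching into the gene, stood at 183.0 and 179.0 CPM in S, 79.8 and 93.2 in H, and 25.6 and 28.0 in control (log2 fold change 1.07 ± 0.0884, adjusted p = 3.63e-21). Both groups were above control and the S libraries were highest. Rsad2's own start peak stood at 32.9 and 31.7 CPM in S against 19.4 and 24.6 in H (0.56 ± 0.125, adjusted p = 0.000616). Without H 1 the start peak's log2 fold change was 0.39 (adjusted p = 0.143). Within 100 kb, 12 of 29 peaks were higher in S and none in H, and 3 of the 12 remained called without each library in turn. Of all start peaks 4.91% were higher in S and 2.22% in H, and of those with a mean of 20 to 50 CPM 8.91% and 1.63%. Of 41 antiviral effector genes, all with a start peak and of a median level of 22.8 CPM, 9 were higher in S and none in H, with a median log2 fold change of 0.15. They were Rsad2, Cmpk2, Ifit1, Ifit3, Ifit3b, Oasl1, Oasl2, Mx2 and Parp12, of which Ifit1, whose protein binds viral RNA ends, had the largest value, at 26.9 and 31.2 CPM against 17.7 and 18.1 (0.7 ± 0.131, adjusted p = 2.58e-05). Ifit1 has close copies in the same cluster, and its peak covers another start, that of Ifit1bl2. Among the start peaks of these 9 genes Ifit1 alone remained called without each library in turn, the others reaching adjusted p-values of 0.0932 (Ifit3b) to 0.473 (Cmpk2). With PAM, 1 of the 41 genes was higher in PS and 1 in PH. The Ifit1 and Rsad2 start peaks were not called there, at 0.26 ± 0.128 (adjusted p = 0.243) and 0.3 ± 0.121 (adjusted p = 0.125).

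Genes of ISG15 conjugation, which attach a ubiquitin-like protein to targets, were higher in S at 2 of 5. The median level of the 5 was 27.6 CPM, and of start peaks with a mean of 20 to 50 CPM 8.91% were higher in S and 1.63% in H. Isg15 itself stood at 28.9 and 26.4 CPM in S and 18.2 and 16.0 in H (0.69 ± 0.131, adjusted p = 3.85e-05), and Ube2l6, the conjugating enzyme, at 65.0 and 66.8 against 47.2 and 45.3 (0.51 ± 0.101). Of start peaks with a mean of 10 to 20 CPM, 5.26% were higher in S and 1.79% in H. Counts in lists this small were not read as an excess. Of 15 GBP and IRG GTPases with a start peak, which act at pathogen membranes (median level 15.4 CPM), Gbp5 and Gbp2 were higher in S and none in H (median 0.25). Their log2 fold changes were 0.39 and 0.32, and either call was lost without any 1 of the 4 libraries (adjusted p up to 0.392 and 0.137).

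Of 20 genes that sense RNA or DNA and relay the signal, 3 were higher in S and none in H, beside 4.91% and 2.22% of all start peaks. The median level of the 20 was 32.8 CPM, and of start peaks with a mean of 20 to 50 CPM 8.91% were higher in S and 1.63% in H. Ticam1, the adaptor of TLR3, was higher in S at 0.42 ± 0.106 (adjusted p = 0.00311), as were Zbp1, a nucleic acid sensor (0.31 ± 0.1), and Tbk1, the kinase of IRF3 (0.27 ± 0.0907). The RIG-I gene Ddx58 stood at 14.9 and 17.6 CPM in S and 16.8 and 12.9 in H, overlapping values, with a log2 fold change of 0.12 ± 0.163 (adjusted p = 0.729). Ifih1, encoding MDA5, had 0.25 ± 0.104 (adjusted p = 0.124) and Mavs 0.28 ± 0.14 (adjusted p = 0.21). Of 19 interferon receptors, kinases, STATs and IRFs, with a median level of 36.8 CPM, 2 were higher in S and none in H. Beside the shares at 20 to 50 CPM, neither this count nor that of the sensing genes was read as an excess. Jak2, a receptor-bound kinase, was higher in S at 73.8 and 68.0 CPM against 50.5 and 47.3 (0.53 ± 0.0978, adjusted p = 1.74e-05), and Irf2 at 0.29 ± 0.0982. Jak2 remained called without each library in turn. The call was lost without any 1 of the 4 at Zbp1, Tbk1 and Irf2 (adjusted p up to 0.288, 0.185 and 0.287), and at Ticam1 without S 1 or H 2 (up to 0.205).

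Ccl5, a chemokine that draws T cells and monocytes, had the lowest p of the whole comparison. The 6004 bp peak chr11:83521831-83527834, which covers its start and that of Heatr9, stood at 93.8 and 91.0 CPM in S, 31.0 and 29.5 in H and 5.14 and 4.44 in control. The groups did not overlap, and the log2 fold change was 1.61 ± 0.108 (adjusted p = 6.65e-28). Of 17 chemokines with a start peak, Ccl5 and Cxcl10 (0.43 ± 0.1, adjusted p = 0.0012) were higher in S. Cxcl5, a neutrophil attractant, was higher in H at a low level, 2.41 and 2.93 CPM against 0.589 and 0.677 (-2.05 ± 0.517, adjusted p = 0.00315). The median log2 fold change over the list was 0.07, and its median level was 8.42 CPM. Of start peaks with a mean of 5 to 10 CPM, 3.85% were higher in S and 3.17% in H. The Cxcl10 call was lost without S 1 (adjusted p = 0.0615) or H 2 (0.0626), and that of Cxcl5 without S 1 (0.0607).

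Of 26 inflammatory cytokines and enzymes with a start peak, 8 were higher in S and none in H (median 0.3). The median level of the 26 was 11.5 CPM, and of start peaks with a mean of 10 to 20 CPM 5.26% were higher in S and 1.79% in H. Il27, whose subunit shapes T cell responses, stood at 16.9 and 16.2 CPM in S and 8.32 and 6.38 in H (1.16 ± 0.196, adjusted p = 2.91e-06). Tnf, the inflammatory cytokine, stood at 69.4 and 69.2 against 39.2 and 40.0 (0.81 ± 0.1, adjusted p = 7.31e-11). Acod1, the itaconate enzyme listed as Irg1, stood at 40.7 and 31.8 against 23.1 and 21.6 (0.69 ± 0.123, adjusted p = 7.59e-06). The remaining 5 were Il10, Osm, Il15, Il6 and Il23a, with log2 fold changes from 0.43 to 0.66. Il27, Tnf, Acod1 and Il15 remained called without each library in turn, and the other 4 reached adjusted p-values of 0.2 (Il10) to 0.389 (Il6). Il12b stood at 7.26 and 5.78 CPM in S and 7.94 and 8.62 in H (-0.34 ± 0.225, adjusted p = 0.39).

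Of 17 NF-kappaB subunits and inhibitors, Nfkb2, Nfkbid, Nfkbib, Nfkbiz, Rel and Nfkbia were higher in S and none in H (median 0.25). The median level of the 17 was 30.7 CPM, and of start peaks with a mean of 20 to 50 CPM 8.91% were higher in S and 1.63% in H. Nfkb2, the p100 subunit, had the largest value, at 84.3 and 74.7 CPM against 50.7 and 50.8 (0.65 ± 0.0944, adjusted p = 3.73e-08), and of the 6 it alone remained called without each library in turn. Of 20 dendritic cell maturation and migration genes, 6 were higher in S and 2 in H (median 0.44). The median level of the 20 was 10.2 CPM, and of start peaks with a mean of 10 to 20 CPM 5.26% were higher in S and 1.79% in H. Tnfsf4, the ligand OX40L, stood at 9.16 and 8.24 CPM against 2.99 and 4.48 (1.24 ± 0.256, adjusted p = 0.000176). Cd80, a costimulatory protein, stood at 8.83 and 10.9 against 5.65 and 5.34 (0.84 ± 0.229, adjusted p = 0.00739). The chemokine receptors Ccr7, which guides dendritic cells to lymph nodes, and Cx3cr1 went the other way. Ccr7 stood at 27.0 and 26.7 CPM in S, 47.0 and 49.5 in H and 28.7 and 28.5 in control (-0.84 ± 0.199, adjusted p = 0.00795). Cx3cr1 stood at 2.09 and 2.77 in S and 6.54 and 3.53 in H (-1.07 ± 0.339, adjusted p = 0.0275). Without H 1, the higher of its libraries, the Cx3cr1 value was -0.54 (adjusted p = 0.582). None of these 8 calls held without each library in turn. The lowest of their highest adjusted p-values were 0.0631 for Cd40 (without H 2), 0.0649 for Tnfsf4 (without H 1) and 0.0693 for Ccr7 (without S 2), and Cd80 reached 0.15.

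Tnfsf15, encoding the cytokine TL1A, lay in another dense interval: 11 of 47 peaks within 100 kb were higher in S and 1 in H, and 5 of the 11 remained called without each library in turn. Its start peak stood at 25.1 and 27.4 CPM against 19 and 14.7 (0.63 ± 0.139; adjusted p = 0.0899 without H 2), while a broader peak at chr4:63733434-63742661 stood at 46.1 and 50.0 against 16.7 and 21.5 (1.34 ± 0.122, adjusted p = 2.69e-18). The intervals of 100 kb given here are a selection of loci looked up in the same way. Others held from 0 of 28 peaks higher in S (Hsd11b1) and 5 of 43 (Ccl5) to 8 of 24 (Isg15). Of all tested peaks 5.1% were higher in S, a share not matched for level. Other lists held few called peaks. For comparison, 8.91% of all start peaks with a mean of 20 to 50 CPM were higher in S and 1.63% in H. The median level of each of these lists lay in that range. Of 20 antigen presentation genes, H2-D1 (0.38 ± 0.104) and the peak shared by Brd2 and H2-DMa (0.25 ± 0.0863) were higher in S. Of 20 AP-1, BATF, ATF and EGR factors, Egr1 (0.45 ± 0.0933) and Jund (0.31 ± 0.0933) were higher in S. Zc3h12c and Ptpn2 were higher among 16 feedback regulators, and those higher among 22 cell death and inflammasome genes included Nlrp3 and Fas. Among 20 lineage factors Spi1, encoding PU.1 (0.37 ± 0.107), and Hivep1 (0.4 ± 0.0939) were higher in S, whereas Cebpd was higher in H (-0.44 ± 0.116; adjusted p = 0.349 with the mitochondrial peak kept). None of 14 cholesterol and oxysterol genes was called, the one with the lowest p being Srebf2 (-0.3 ± 0.118, adjusted p = 0.0982). Of 19 reference promoters with a peak, chosen as genes active in most cells, Actb alone was called (0.33 ± 0.0999, adjusted p = 0.0179), so small differences of this size also stood at a promoter outside immune lists. Of the start peaks called in these last lists, Egr1 alone remained called without each library in turn. The values of 4 others moved by over 1.5 times: Zc3h12c from 0.48 to 0.26 without H 1, Nlrp3 from 0.45 to 0.29 without H 2, and Ptpn2 from 0.29 to 0.19 and Fas from 0.39 to 0.24 without S 1. Over all these lists 60 start peaks were called, 13 remained so without each library in turn, and the direction of none of the 60 turned under any of 4 other scalings.

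Markers of other cells moved in both directions. Of 9 macrophage genes, C1qb, Fcgr1 and Marco were higher in H and none in S (adjusted p of up to 0.259, 0.133 and 0.365 with 1 library left out and 0.195, 0.171 and 0.123 under other scalings), their summed level being 145.0 and 142.0 CPM in S and 165.0 and 155.0 in H. Of 11 dendritic cell genes with a start peak, Ccr7 alone was called, and the sums were 214.0 and 208.0 in S and 220.0 and 215.0 in H. Of 10 neutrophil genes 3 had a start peak and none was called. Their sums were 30.6 and 29.2 CPM in S and 40.0 and 32.1 in H. Trac (1.07 ± 0.178) was the T cell gene called, of 2 with a peak, and Ms4a1 (1.1 ± 0.32) the B cell gene called, of 2; both were higher in S (Ms4a1 at an adjusted p of up to 0.104 with 1 library left out) while the defining genes named above had no start peak. The part of a changed mix of cells in the comparison was not tested.

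Among called peaks with a mean of at least 2 CPM and no overlap between S and H, the largest fitted differences lay at low levels. Anxa5, which encodes a phosphatidylserine-binding protein, held a peak within the gene at chr3:36453407-36454064 of 9.42 and 8.67 CPM in S against 0.254 and 0.776 in H (4.21 ± 0.368, adjusted p = 2.2e-19). Both H libraries were near the control values of 0.437 and 0.482. A peak 3206 bp from Tnfrsf13b, which encodes the B cell receptor TACI, stood at 12.2 and 9.72 against 0.953 and 0.948 (3.51 ± 0.31, adjusted p = 4.16e-19). The other 6 of the 8 highest lay in Pcp4, Glis3, Zbtb20, Vwa8 and Dnm3 or 410197 bp from Atp2b1, with log2 fold changes of 3.42 to 3.86. A peak of higher level within Abcb1a, encoding a drug efflux transporter, stood at 25.9 and 33.8 CPM against 7.37 and 8.62 (1.91 ± 0.15, adjusted p = 5.38e-23).

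Peaks higher in H with the lowest p were Ccdc85a, Pi15, Cpb1, Hsd11b1 and Atp2b1. The peak 240223 bp from Ccdc85a stood at 4.84 and 6.52 CPM in S, 23.2 and 18.3 in H and 21.7 and 18.6 in control (-1.87 ± 0.171, adjusted p = 9.65e-18). The peak in Pi15 stood at 11.7 and 11.9 in S, 34.9 and 28.5 in H and 35.3 and 33.7 in control (-1.43 ± 0.136). At both, H overlapped control and S lay below it. The start peak of Hsd11b1, which encodes the enzyme that regenerates active glucocorticoid, stood at 11.4 and 15.6 CPM in S, 32.3 and 32.1 in H and 50.4 and 46.6 in control (-1.25 ± 0.133, adjusted p = 3.82e-14), so both groups were below control. The peak 28622 bp from Cpb1 had the same order, with 12.0 and 12.1, 33.6 and 29.1, and 68.3 and 56.7 CPM. Under the same limit of 2 CPM and no overlap, the 8 peaks with the lowest fitted values, near or in Rgs18, Bckdhb, C8a, Asap1, Peak1, Rchy1, Strit1 and Dnajc6, lay between -2.83 and -2.29 and had no S library above 1.44 CPM. Without S 1 the value at Rchy1 was -3.79 and the call at Strit1 was lost (adjusted p = 0.0536).

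**Figure D3:**
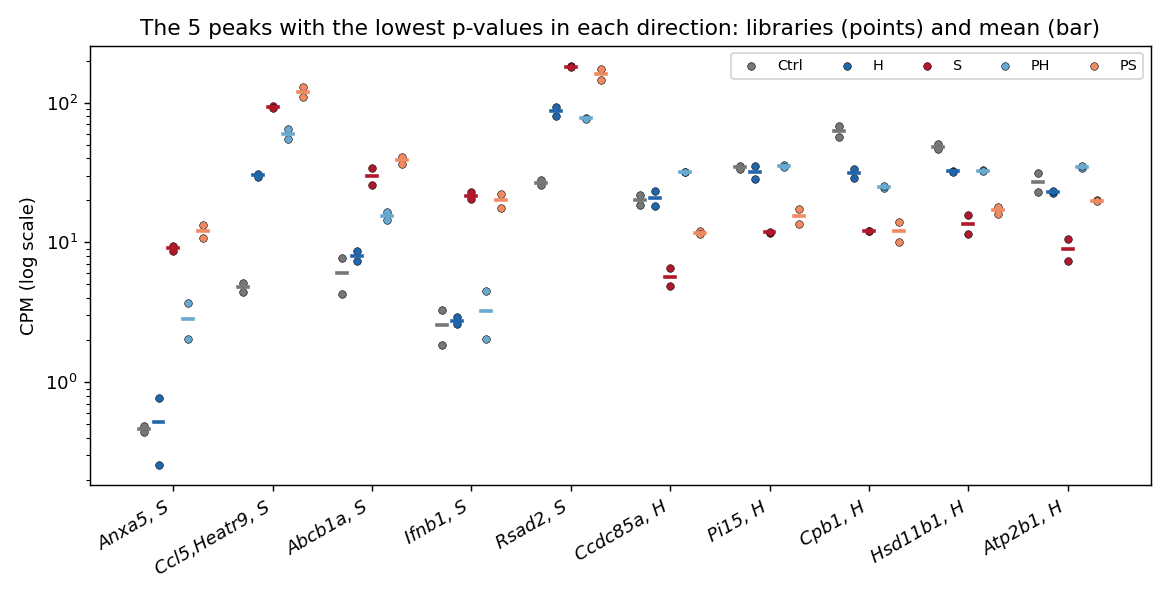
CPM (log scale) of the 5 peaks with the lowest p in each direction, named by gene and followed by the group that was higher, in control (Ctrl), H, S, PH and PS. Points are single libraries and bars are means; the S and H points are apart at all 10 peaks, and at all 10 PS lies on the same side of PH as S does of H.

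Set beside control, at 41.0% of the peaks higher in S both ligands stood above both control libraries, and at 40.8% S was above control and H was within or overlapping it. At 44.0% of the peaks higher in H both ligands stood below control, and at 32.3% S was below control and H overlapped it. S and H share the control libraries here, so these shares are descriptions. The median level of the 6090 peaks was 7.59 CPM in S, 3.55 in H, 2.65 in control and 5.94 in 3',3'-cGAMP (cG), a ligand of the STING pathway. That of the 4728 peaks was 2.9, 6.15, 7.2 and 3.41. In combinations with SeV the first median was 6.37 to 8.01, in PS, ZS, ScG, ZScG and PScG. It was 4.56 in LPS and 3.97 in PAM. S and H chose these peaks, so their own 2 values carry no test.

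**Figure D4:**
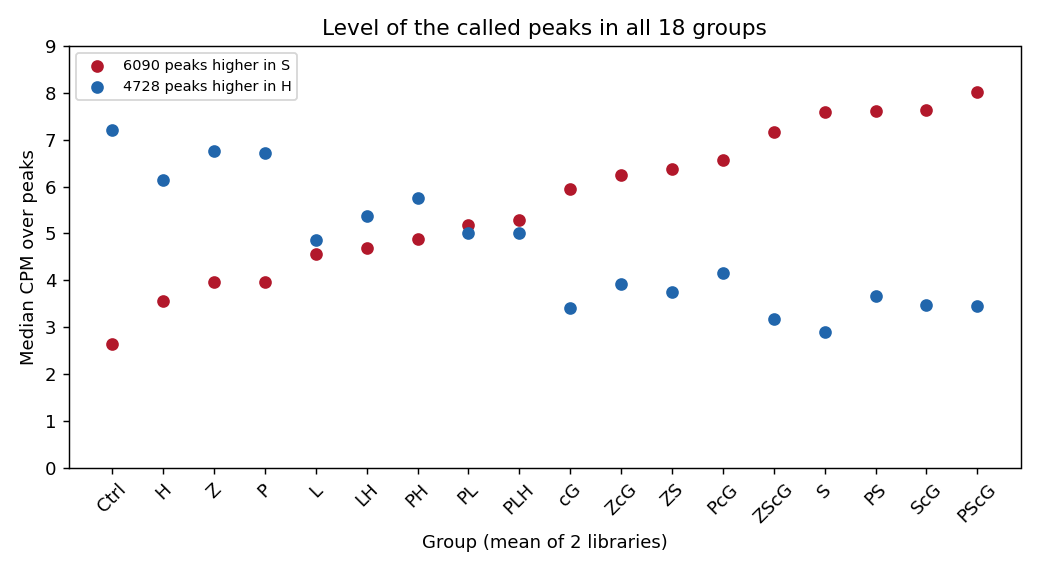
Median CPM of the 6090 peaks higher in S (red) and the 4728 higher in H (blue) in each of the 18 groups, ordered by the first. Groups with SeV or cGAMP (cG) have red medians of 5.94 to 8.01 and blue medians of 2.9 to 4.16, and the other groups have red medians of 2.65 to 5.29 and blue medians of 4.87 to 7.2.

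Peaks higher in S and in H differed in where they lay, given here as shares without a test. Of the 6090, 12.8% lay within 1 kb of a protein-coding start, against 7.47% of the 4728 and 13.3% of all tested peaks, and 12.2%, 26.6% and 13.2% lay over 100 kb from one. Peaks higher in S had a median width of 677 bp, those higher in H 597 bp and all tested peaks 451 bp. Peaks at a start with a mean of 20 to 50 CPM were higher in S in 8.91% of cases and higher in H in 1.63%, and those inside genes at the same level in 17.5% and 9.85%. Called peaks were also neighbours in the order of tested peaks. Of the 6090, 1440 were next to another peak called in the same direction, in 638 runs, and of the 4728, 995, in 439 runs. Neighbours in this order can lie far apart: 5 peaks higher in H at Dach1 and Mzt1 spanned 205 kb. No share for all tested peaks was computed, so the counts are not a measure of clustering.

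The run of 5 neighbouring peaks higher in S at chr16:84701704-84722233 covers Mir155hg, the host gene of miR-155, a microRNA made in activated immune cells. It was chosen after the values were seen. No run higher in S was longer, but others were as long, such as those at Vwa8 and Tiparp. The longest run higher in H held 7 peaks. The mature products of miR-155 are shown with the seed (bases 2 to 8) in capitals. Beside them are those of miR-142, a microRNA of blood cells whose hairpin also lay in a peak higher in S. The sequences are from RefSeq, and the 4 seeds all differ.
miR-155-5p: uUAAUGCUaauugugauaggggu
miR-155-3p: cUCCUACCuguuagcauuaac
miR-142a-5p: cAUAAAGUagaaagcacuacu
miR-142a-3p: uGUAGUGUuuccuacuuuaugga
The 5 peaks summed to 213.0 and 211.0 CPM in S, 97.8 and 112.0 in H and 40.9 and 36.7 in control. The largest difference within them was at chr16:84715616-84722233, at 69.0 and 75.3 CPM in S against 16.5 and 27.8 in H (1.72 ± 0.166, adjusted p = 2.18e-08). The peak holding the Mir155 hairpin differed less, at 50.8 and 54.7 against 38.7 and 40.7 (0.41 ± 0.105, adjusted p = 0.00369), and lost its call without S 2 or H 1 (adjusted p up to 0.0856). The Mir142 peak stood at 29.6 and 27.4 CPM in S and 16.9 and 15.6 in H (0.81 ± 0.135, adjusted p = 1.87e-06). Of 131 microRNA hairpins in a tested peak, out of 1005 in the RefSeq table, 13 were in a peak higher in S and 2 in a peak higher in H. Some hairpins share a peak: of 120 distinct peaks, 11 were higher in S (9.17%) and 2 in H, against 5.1% and 3.96% of all tested peaks. These shares are not matched for level. Among tested peaks with a mean of 10 to 20, 20 to 50 and at least 50 CPM, 11.3%, 11.8% and 7.48% were higher in S. In H the shares were 7.5%, 4.91% and 6.16%, so 9.17% is not read as an excess. With PAM the 5 peaks summed to 290.0 and 225.0 CPM in PS and 231.0 and 245.0 in PH, overlapping, and none of the 5 was called.

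With PAM on both sides, 8213 of the 119464 peaks differed between PS and PH (6.87%), 4571 higher in PS (3.83%) and 3642 higher in PH (3.05%). The share of calls higher in PS was 55.7%, and 69.8% of 8508 scaled by total counts and 87.0% of 9177 with the mitochondrial peak kept, but 50.0% of 8156 with offsets by abundance, 50.0% of 12344 with the groups compared alone and 49.0% of 9545 in a fit of 13 groups, so neither side was in excess under every setting. The count was 2637 without PH 2, 2743 without PS 2, 4048 without PS 1 and 4781 without PH 1. Of the peaks higher in S than in H, 93.1% had the same sign, with a median of 0.537, and of those higher in H, 92.2%, with a median of -0.553; 67.2% of all tested peaks had the same sign. Called in both in the same direction were 3651 peaks, 33.7% of the S and H calls and 44.5% of the PS and PH calls, and 11 were called in opposite directions. Over all tested peaks the log2 fold changes of both comparisons had a Pearson r of 0.462, a value across peaks, which share libraries and are not replicates. The peaks were chosen on S and H, so their smaller median in PS and PH is not a test of a smaller effect.

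The test of the difference itself, S minus H against PS minus PH, called 145 peaks (0.121%), 113 with the larger value without PAM (0.0946%) and 32 with the smaller (0.0268%), and 17 remained called without each of the 8 libraries in turn. The count was 51 to 77 with 1 library left out, 37 with the mitochondrial peak kept, 430 with the groups compared alone and 3 against a fold of 1.5. At 88 of the 145 S was called higher than H while PS and PH did not differ at the threshold. At 9 S was called higher than H and PH was called higher than PS, and 21 were called in PS against PH alone. At the 113 peaks the median level was 13 CPM in S, 5.97 in H, 15.6 in PS, 15.1 in PH, 12.4 in PAM alone and 2.65 in control. H was the lowest of the 5 stimulated groups at the median, which the choice of these peaks favours, so the levels carry no test. The lowest p was at the start of Slc7a2, which encodes a cationic amino acid transporter. Slc7a2 stood at 17.5 and 18.5 CPM in S and 8.45 and 8.79 in H, but at 23.0 and 20.2 in PS and 33.6 and 36.9 in PH, with PAM alone at 25.8 and 24.5 and control at 4.92 and 3.09. S was higher than H at 1.06 ± 0.157 and PH higher than PS at -0.71 ± 0.133, a difference of 1.77 ± 0.206 (adjusted p = 2.19e-10; at most 1.87e-06 with 1 library left out).

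Next came a peak upstream of Mir155hg at chr16:84681734-84682669, nearest to the protein-coding gene Mrpl39. It stood at 11.1 and 10.1 CPM in S and 1.91 and 2.93 in H, and at 19.4 and 17.4 in PS and 19 and 15.5 in PH, a difference of 2.07 ± 0.285 (adjusted p = 5.11e-07). A peak in Nfkb1 and one next to Tnfaip3, an NF-kappaB inhibitor, chosen after their values were seen, had the same pattern. The Nfkb1 peak stood at 20.3 and 21.6 CPM in S and 7.18 and 8.88 in H, and at 24.2 and 25.6 in PS and 23.9 and 23.6 in PH (difference 1.33 ± 0.206, adjusted p = 1.3e-05). At the Nfkb1 peak both PS libraries lay just above both PH libraries. The Tnfaip3 peak had a difference of 1.28 ± 0.217 (adjusted p = 0.000199), and there PS and PH overlapped. At the 6004 bp peak of Ccl5, the difference from PS and PH was smaller, 0.61 (adjusted p = 0.0463, up to 0.401 with 1 library left out), and PS remained above PH.

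**Figure D5:**
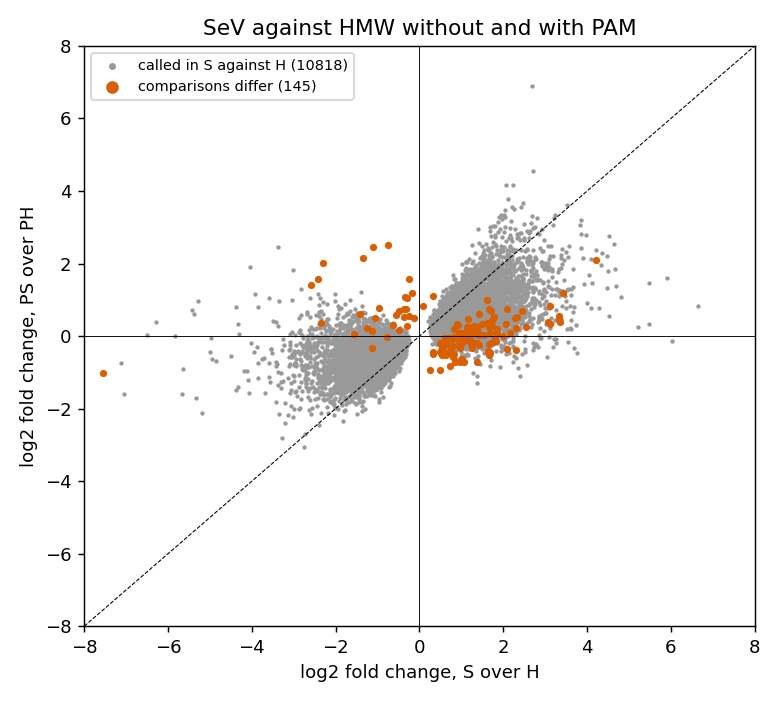
Fitted log2 fold change of PS over PH against that of S over H, for the 10818 peaks called in S against H (grey) and the 145 peaks at which the 2 comparisons differed (orange). Most grey points lie in the same-sign quadrants, and the orange points lie mostly right of the dashed line of equality, close to 0 on the vertical axis.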

How the data were processed

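The authors deposited 1 table of raw counts of ATAC-seq reads in 119751 peaks for 36 libraries of 18 groups. Per the submitters' processing notes, Bowtie2 2.2.9, MACS2 (version listed as 1.4), bedtools and featureCounts were used with the mm10 build; how the peak set was merged is not given in the sources used here. The counts were not normalised. The peak spanning the mitochondrial genome was left out, 286 peaks were removed by filterByExpr (edgeR, minimum count 10) and 119464 were tested. All 36 libraries entered 1 fit with 1 coefficient per group and 18 residual degrees of freedom (R 4.3.3, edgeR 4.0.16, limma 3.58.1): TMM factors, a trended dispersion, robust quasi-likelihood tests of S - H, PS - PH and their difference, and Benjamini-Hochberg adjustment over all tested peaks at 0.05. The script was tested on simulated counts. The SE of a fold change is its size over the square root of F. CPM values are the deposited counts over the library total outside the mitochondrial peak, with TMM factors.

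A gene's start peak is the tested peak of highest mean CPM within 1 kb of its start (RefSeq promoter table, GRCm38.p6; either gene end where it has no entry). A promoter window was counted as in a peak where they overlap. Named are, of called peaks with a mean of at least 2 CPM and groups apart, the 8 of largest fold change on either side, then the 5 of lowest p on either side, up to 3 called start peaks a list in each direction (the member of lowest p where none is called), and the peak of lowest p in each direction of the difference; others are said to be chosen after their values were seen or are list members. The members, gene lists and markers were chosen with earlier results of these data known. Peak sequences outside promoter windows were not used here, and some list members are not reported here. Alternatives were other scalings, filters, library sets, DESeq2 1.42.0, tagwise dispersions, thinned depth, a fold threshold, the replicate number as a block, leaving out each library, and, chosen after seeing the data, leaving out scaffold peaks and peaks of very high level.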

Additional observations from a re-analysis of the deposited data

Results flagged for a closer look

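The test of the difference itself, S minus H against PS minus PH, singled out 145 peaks, and 6 of the peaks named by rule were among them. For Slc7a2 the difference was 1.77 (adjusted p = 2.19e-10 by edgeR), with S above H and PH above PS. For Anxa5 it was 2.12 (adjusted p = 0.0292, up to 0.577 with 1 library left out, the difference then being 1.44 without H 1 and 3.01 without H 2), with PS at 10.8 and 13.2 CPM and PH at 3.68 and 2.02. For the distal peak chr10:98503833-98504445 nearest to Atp2b1, at 4.45 and 5.23 CPM in S, 0.191 and 0.776 in H, 7.9 and 8.08 in PS and 3.95 and 3.09 in PH, it was 2.23 (adjusted p = 0.0436, up to 0.622 with 1 library left out, the difference then being 1.44 without H 1 and 3.41 without H 2). For the peak over Heatr9 and Ccl5 it was 0.61. For Acod1, at 32.4 and 29.8 CPM in PS and 32.0 and 32.0 in PH, it was 0.74 (adjusted p = 0.026, up to 0.462 with 1 library left out). The lowest p in the other direction was at a peak outside genes, chrY:90810647-90813168, 67918 bp from its nearest gene start, that of Gm52481. It stood at 16.8 and 20.2 CPM in S, 20.8 and 24.8 in H, 26.5 and 22.9 in PS and 11.4 and 12.2 in PH, a difference of -1.35 (adjusted p = 0.000642, at most 0.0211 with 1 library left out), while S and H alone were not called there (adjusted p = 0.278). All mice were female, so these reads cannot be taken as coming from chromosome Y, and their origin was not tested.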

How the results depend on the processing

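No named peak turned direction under any alternative. Of the peaks in S against H, 10818 in the fit reported, 1526 were called when tested against a fold of 1.5, and 5153 to 6013 with 1 library left out; the other alternatives stayed within 1.5 times. PS against PH gave 8213, but 12344 with the groups compared alone, 5020 thinned to 1 depth, 581 against a fold of 1.5 and 2637 (without PH 2) to 4781 (without PH 1) with 1 library left out, with 2743 without PS 2 and 4048 without PS 1. The difference between the comparisons gave 145 peaks, but 37 with the mitochondrial peak kept, 430 with the groups compared alone, 253 with the 13 groups of lower mitochondrial share, 226 with DESeq2, 60 thinned, 3 against a fold of 1.5 and 51 (without PS 1) to 77 (without S 2) with 1 library left out. The 60 list start peaks became 92 with the mitochondrial peak kept, 5 against a fold of 1.5 and 23 (without S 1) to 36 (without S 2), with 33 without H 1 and 28 without H 2. Offsets by abundance ended 23 of these 60 calls. A group left with 1 library is assumed to vary like the other groups. Of 66 called named peaks, 35 remained called without each library in turn. The replicate number as a block gave 10692, 8099 and 145 peaks; same-numbered libraries did not deviate together (r = -0.000796 for S and H, -0.0191 for PS and PH), so the numbers are not taken as pairs. Beyond the fold threshold, which asks for a larger change, and the smaller number of libraries or reads, the cause of these shifts was not tested. With 2 libraries a group, small differences at low counts were not detectable.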
